A study of Mus musculus with 6 samples.

Results

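Of 5938 sites where labelled DNA ends gathered in vehicle-treated mouse embryonic fibroblasts, 470 (7.92%) lay far from every protein-coding gene. These far peaks were the peaks of the DMSO list whose summit, the position of highest signal, lay in no protein-coding gene body and more than 20 kb from the nearest end of one. The whole DMSO list held 6444 peaks. Those in a 2.3 Mb stretch of chromosome 15 around Myc, where peaks lie in a dense run, were left out of members and comparisons. The members were chosen from a RefSeq gene table of GRCm38.p6 (the assembly of mm10, the build of the peak lists). The distance rule used gene positions only, and the stretch of chromosome 15 was left out for its dense peaks in these data. Nearness to non-coding genes was not part of the rule, and 177 far peaks (37.7%) had their summit in or within 1 kb of one. The far peaks are thus far from coding genes, not from all genes.

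The peaks came from BrITL, which labels DNA ends in permeabilised cells with a biotinylated nucleotide, pulls the labelled fragments down with streptavidin and sequences them. All samples were passage-immortalised mouse embryonic fibroblasts with 1 intact copy of Atr (ATR+/-) that express Bcl-xL, a protein that protects cells from death, so the vehicle cells carry both changes too. Cells were given DMSO for 18 h, or 1 µM of the inhibitor ATR-45 with 0.2 µM aphidicolin for 18 h (called treated here). For DMSO, as for the treatment, there were 2 pull-downs and 1 input, which the authors pooled into 1 peak list per condition. There was thus no replicate error and every peak has a single value. The lists hold no expression values, and the fibroblast identity of the cells could not be checked against markers.

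A DNA end can arise where a replication fork collapses, where topoisomerases cut, where nucleases act or where chromosomes are damaged before or during preparation, and end labelling does not tell these apart. Transcription start sites of active genes are open chromatin that gathers such ends in many cell types. Regions far from coding genes hold distal enhancers, long non-coding RNA genes, microRNA genes and repeats, and are mostly replicated late and closed. ATR is the kinase that restrains origin firing and protects stalled forks, and aphidicolin slows replicative polymerases.

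Among the far peaks, 55 (11.7%) covered the annotated start of a non-coding gene. The 300 bases around such a start (250 before to 50 after it, from RefSeq GRCm38.p6, 5′ to 3′ on the strand of the gene) are shown for 5 of them. They are the starts under the 3 far peaks of highest fold that cover one, the only such start under a peak that also met a treated peak (Dancr), and the start under the strongest far peak of chromosome X (Jpx). Capitals mark matches on either strand to a GC box, CCAAT box, TATA box, AP-1 site, E box or ETS site, whose letters are spelt out with their counts. Overlapping GC boxes run together in the last window.
Gm35551, chr17:84044537-84044836, minus strand: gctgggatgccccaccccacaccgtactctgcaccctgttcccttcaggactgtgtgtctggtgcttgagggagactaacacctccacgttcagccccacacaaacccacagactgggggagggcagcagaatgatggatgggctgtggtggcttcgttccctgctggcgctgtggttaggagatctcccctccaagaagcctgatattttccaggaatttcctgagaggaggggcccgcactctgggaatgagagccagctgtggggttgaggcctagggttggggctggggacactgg
Gm32513, chr2:167789118-167789417, plus strand: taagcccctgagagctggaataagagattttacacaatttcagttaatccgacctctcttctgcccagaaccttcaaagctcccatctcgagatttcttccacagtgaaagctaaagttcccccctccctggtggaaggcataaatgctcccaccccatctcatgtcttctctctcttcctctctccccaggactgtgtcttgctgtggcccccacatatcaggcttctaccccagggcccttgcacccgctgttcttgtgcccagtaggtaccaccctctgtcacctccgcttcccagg
D130051D11Rik, chr15:85634346-85634645, plus strand: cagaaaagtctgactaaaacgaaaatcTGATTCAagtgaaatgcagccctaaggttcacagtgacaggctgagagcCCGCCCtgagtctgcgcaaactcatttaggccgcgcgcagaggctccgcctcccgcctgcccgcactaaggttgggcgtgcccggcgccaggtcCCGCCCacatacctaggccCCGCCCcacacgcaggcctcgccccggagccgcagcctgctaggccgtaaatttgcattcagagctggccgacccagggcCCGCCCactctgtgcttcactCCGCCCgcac
Dancr, chr5:74092810-74093109, plus strand: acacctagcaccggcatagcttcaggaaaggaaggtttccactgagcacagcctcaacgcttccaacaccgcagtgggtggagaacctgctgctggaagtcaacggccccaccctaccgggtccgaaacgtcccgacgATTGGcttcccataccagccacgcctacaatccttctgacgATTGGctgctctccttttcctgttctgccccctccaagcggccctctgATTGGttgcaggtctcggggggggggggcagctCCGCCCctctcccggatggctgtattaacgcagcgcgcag
Jpx, chrX:103493308-103493607, plus strand: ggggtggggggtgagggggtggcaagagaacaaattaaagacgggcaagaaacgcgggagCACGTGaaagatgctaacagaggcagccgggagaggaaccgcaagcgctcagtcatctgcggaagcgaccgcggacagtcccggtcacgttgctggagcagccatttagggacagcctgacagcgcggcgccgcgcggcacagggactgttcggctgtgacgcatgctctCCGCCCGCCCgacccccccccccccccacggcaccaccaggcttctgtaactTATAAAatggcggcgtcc

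These windows differed in make-up. The Gm35551 and Gm32513 starts, under the strongest peaks of the 5 with folds of 22.4 and 18.8, held none of the 6 motifs and few CpG pairs, 5 and 4 in the window. The D130051D11Rik window held 23 CpG pairs, 5 GC boxes and 1 AP-1 site, and Jpx held 27 CpG pairs, 2 GC boxes, 1 E box and 1 TATA box. Dancr held 3 CCAAT boxes and 1 GC box.

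MicroRNA genes were a further group of starts. Of the 215 microRNA hairpin genes in the territory far from coding genes, 13 (6.05%) had a far summit within 10 kb. Hairpins of a cluster were counted singly, so the clusters of Mir17 and of Mirlet7a-1 each gave several of the 13. No share over other genes or positions was counted beside it. With hairpins nearer to coding genes counted too, 17 hairpins lay within 10 kb of 9 far peaks. The Mir183, Mir96 and Mir182 cluster and Mir34a are among these, being under 20 kb from a coding gene end although the far summits are not. The mature sequences below, from RefSeq GRCm38.p6, belong to 3 clusters near strong far peaks and to let-7c-2, 19.7 kb from a far summit, whose seed is that of the let-7 cluster. Capitals mark the seed (bases 2 to 8), the part that pairs with target RNAs.
let-7a-5p: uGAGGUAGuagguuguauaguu
let-7f-5p: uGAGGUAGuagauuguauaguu
let-7d-5p: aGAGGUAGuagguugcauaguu
let-7c-5p: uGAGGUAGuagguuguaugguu
miR-17-5p: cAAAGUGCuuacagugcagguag
miR-20a-5p: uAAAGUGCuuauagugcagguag
miR-18a-5p: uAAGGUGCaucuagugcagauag
miR-19a-3p: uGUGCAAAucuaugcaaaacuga
miR-19b-3p: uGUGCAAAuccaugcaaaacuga
miR-92a-3p: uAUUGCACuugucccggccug
miR-183-5p: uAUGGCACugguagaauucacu
miR-96-5p: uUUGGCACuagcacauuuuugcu
miR-182-5p: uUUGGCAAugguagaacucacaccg

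The let-7 hairpins share the seed GAGGUAG, miR-17 and miR-20a share AAAGUGC, and miR-19a and miR-19b share GUGCAAA. The let-7 family restrains growth and is widely expressed in differentiated cells. Its cluster Mirlet7a-1, Mirlet7f-1 and Mirlet7d on chromosome 13 lay 7.68, 8.03 and 9.84 kb from the far peak at chr13:48544061-48548664, between Zfp169 and Ptpdc1. That peak had a fold of 21.4, among the 5 highest of far peaks, and 87 pull-down fragments at its summit. The miR-17~92 cluster (Mir17, Mir18, Mir19a, Mir20a, Mir19b-1 and Mir92-1 on chromosome 14), known to promote proliferation downstream of MYC, began 1.10 kb from a far summit of fold 13.2 and 2.62 kb from another of fold 10.5. The Mir183, Mir96 and Mir182 cluster on chromosome 6, known from sensory organs, lay 4.70 to 8.44 kb from a far summit of fold 12.7. The peak of that summit covered the start of the cluster's annotated host transcript, Mirc35hg. Mir34a, a target of p53, lay 8.37 kb from a far summit of fold 11.5. Mir125b-1 lay 0.954 kb from a far summit of fold 13.7 in Mir100hg, the long host transcript of Mir100 and Mir125b-1. All these distances are between summit and hairpin.

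Far peaks had a median fold of 10.5, from 2.80 to 23.6, where fold is the authors' ratio of pull-down to local background at the summit. The middle 50% lay between 9.29 and 12.2. Their summits held 36 to 204 pull-down fragments (median 47), recovered from the caller's values as the files hold no read totals. Their widths ran from 110 to 17291 bp with a median of 2581 bp. Of the 470, 387 were 1 to 5 kb wide, 27 wider than 5 kb and 56 narrower than 1 kb. Distances to the nearest coding gene end ran from 20.009 to 2108.9 kb, with a median of 61.4 kb. Just inside the limit lay summits 20.009 kb from Clic4, 20.013 kb from Arl4d and 20.022 kb from Krt42, with folds of 11.2, 11.2 and 10.02. Just outside it lay summits 19.940 kb from Arsi, 19.835 kb from Col1a1 and 19.813 kb from Ccdc66, with folds of 14.9, 10.7 and 9.53.

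The strongest far peaks stood between genes of many kinds. The highest fold, 23.6, was at chr15:85667319-85673361, 64.7 kb from Ppara (a nuclear receptor of fatty acid breakdown) and 88.3 kb from Wnt7b (a secreted signalling protein). It was 6043 bp wide with 96 pull-down fragments at its summit. Next came chr6:51176452-51180684 (fold 23.1), 44.6 kb from Gm38821. The peak at chr17:84042397-84046667 (fold 22.4) lay inside the long non-coding RNA gene Gm35551, 139 kb from Zfp36l2, whose protein destabilises messenger RNAs, and 196 kb from Haao. It was followed by the let-7 peak and by chr2:30705754-30714234 (fold 21.2), 87.0 kb from 1700001O22Rik and 99.6 kb from Cstad. The other 5 of the 10 highest had folds of 18.3 to 19.5. They lay at chr15:85652114-85655502 and chr15:85632688-85636526 (both between Wnt7b and Ppara), chr11:51914211-51918783 (between Jade2 and Cdkn2aipnl), chr2:167788144-167791217 (between Cebpb and Ptpn1) and chr4:135295937-135302155 (between Clic4 and Srrm1). All 10 had input coverage at the genome background of 2.32 fragments.

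Far peaks had lower folds and smaller widths than all other DMSO peaks together. Other peaks were placed in 3 classes: gene end peaks (3682, summit within 1 kb of a coding gene end), inner gene body peaks (1292, inside a coding gene and over 1 kb from every end) and near intergenic peaks (494, in no coding gene and 1 to 20 kb from an end). Of the far peaks, 188 (interval of the share 35.5% to 44.6%) reached the list's median fold of 10.99, against 54.3% over all 5938 peaks. The share was 55.6% among all other peaks (adjusted p = 4.49e-10), 51.0% among inner gene body peaks (adjusted p = 0.000120) and 44.5% among near intergenic peaks (adjusted p = 0.189), by two-sided Fisher's exact tests with Benjamini-Hochberg adjustment over 21 tests. Each interval is an exact Clopper-Pearson one at 95%, which covers only counting error. The tests count neighbouring peaks as independent and compare classes of peaks within 1 pooled list, not conditions.

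Median folds were 10.5 for far, 10.7 for near intergenic, 11.1 for inner gene body and 11.7 for gene end peaks. Median widths were 2581, 2706.5, 2956.5 and 2898.5 bp in the same order. Median pull-down fragments at the summit were 47, 47, 47 and 49, so the lower far fold did not come with a clearly lower pull-down count. The list's median width of 2855 bp was reached by 183 far peaks (38.9%, interval 34.5 to 43.5), against 51.2% over all 5938. The share was 52.2% among all other peaks (adjusted p = 1.11e-07) and 53.7% among inner gene body peaks (adjusted p = 1.28e-07) by the same exact tests. Against near intergenic peaks, at 45.3%, the difference did not pass (adjusted p = 0.0704, exact test). Input coverage is the denominator of the fold, so raised input goes with a lower fold by arithmetic. Without peaks whose input coverage was at least 2 times background, 44.0% of far and 56.3% of all other peaks reached the median fold (adjusted p = 5.50e-06, exact test). Without peaks narrower than 1 kb the shares were 43.2% and 56.3% (adjusted p = 1.76e-06, exact test, both alternatives chosen after seeing the data). The filter on input left in peaks with input above background but under 2 times. Far peaks thus differed in fold and width from inner gene body peaks and from all other peaks together, most of which were gene end peaks. Gene end peaks were not tested on their own. A difference from intergenic peaks nearer to genes was not shown.

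**Figure D1:**
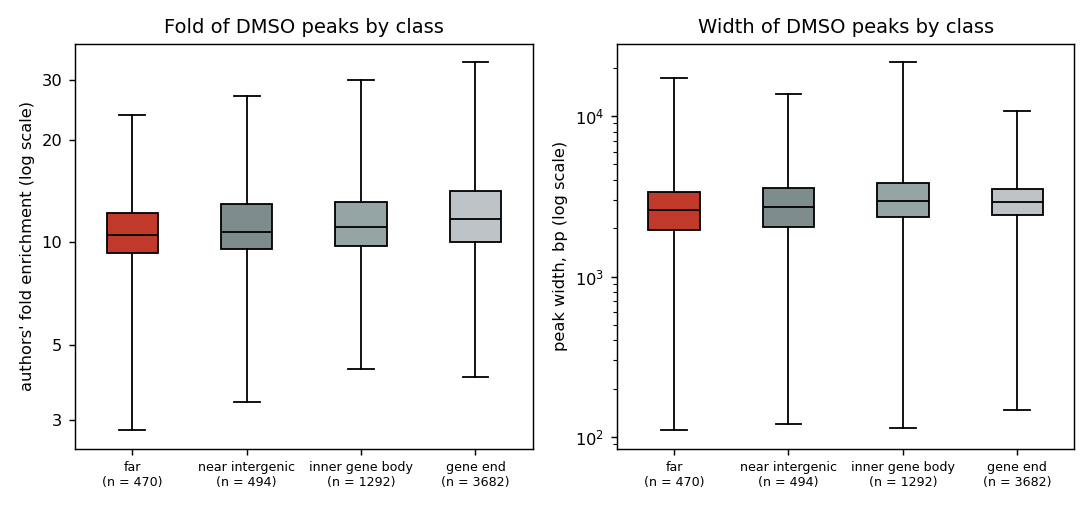
Authors' fold enrichment (left) and peak width in bp (right), both on log scales, for the 4 classes of DMSO peaks. Boxes give the middle 50% with the median as a line and whiskers the lowest and highest peak. The far class has the lowest median fold, 10.5, and the lowest median width, 2581 bp, and all classes overlap.

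Far peaks were thinly spread. The territory far from coding genes was 1264.7 Mb and held 0.372 far peaks per Mb. It made up 46.8% of the span from the first to the last annotated gene of each chromosome, without the left-out stretch. The remaining 1436 Mb held 3.81 peaks per Mb. Within the far territory, density fell with distance from coding genes beyond 50 kb. It was 0.674 per Mb at 20 to 30 kb, 0.879 at 30 to 50 kb, 0.533 at 50 to 100 kb, 0.382 at 100 to 200 kb and 0.171 at 200 to 500 kb. Beyond 500 kb there were only 8 peaks (0.0329 per Mb), with a median width of 173 bp. Coding-free intervals of at least 1 Mb made up 41.7% of the far territory and held 41 of the far peaks (8.72%). These densities are descriptions without a test.

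The far peaks most distant from coding genes were narrow. The farthest, at chr1:102599434-102599574, lay 2108.9 kb from Cntnap5b, an adhesion gene, was 141 bp wide and had a fold of 15.4. The next, at chr5:60042757-60042922, lay 1766 kb from G6pd2 with a fold of 10.99 and a width of 166 bp. The remaining 3 of the 5 farthest lay 831 kb from Tyrp1, 789 kb from Ddx18 and 682 kb from Gm40892, with folds of 4.08, 9.51 and 13.4 and widths of 110, 180 and 154 bp. Input coverage was 9.30 times background at the Tyrp1 peak and 3.46 times at the Ddx18 peak, and at background at the other three.

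Chromosomes differed in density. Chromosome 17 had the highest value, 0.817 far peaks per Mb of far territory (32 peaks), and chromosome 12 the lowest among autosomes, 0.170 (11 peaks). Chromosome X had 6 far peaks (0.0601 per Mb) and chromosome Y had 5 (0.0637 per Mb). The sex of the cells was not known here. On X the highest fold was 13.4, at the start of Jpx, a non-coding activator of Xist. Further X peaks were in Firre (fold 9.53), a non-coding RNA gene that organises chromatin contacts, between Gm52433 and Tbl1x (fold 10.02), beyond Asmt (fold 9.43) and in the pseudogene LOC115489104 (fold 8.09). The 5 peaks of chromosome Y lay within 24.6 kb of each other, had folds of 5.38 to 10.3, and 4 of them had input coverage of at least 2 times background.

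**Figure D2:**
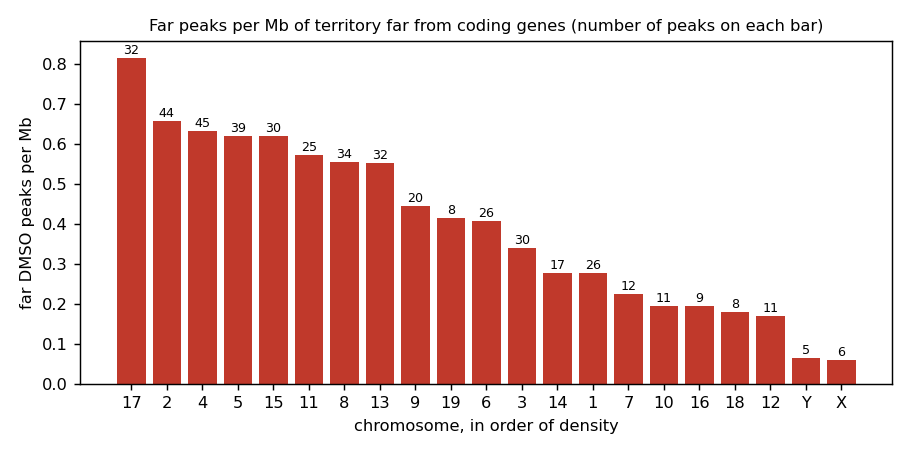
Far DMSO peaks per Mb of territory far from coding genes (bars, from 0) for each chromosome in order of density, with the number of far peaks on each bar. Chromosome 17 stands highest at 0.817 per Mb, and X and Y lie lowest at 0.0601 and 0.0637 per Mb.

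Many far peaks lay in non-coding genes. Summits of 141 far peaks (interval of the share 25.9% to 34.4%) were inside a non-coding gene body, of which 134 were in long non-coding RNA genes, against 12.0% over all 5938 peaks. The share was 10.5% among all other peaks (adjusted p = 5.74e-27) and 7.97% among inner gene body peaks (adjusted p = 1.59e-27, exact tests). Near intergenic peaks had 24.1%, and that difference did not pass (adjusted p = 0.0632, exact test). By the rule far peaks lie in no coding gene, whereas inner gene body peaks lie in one and count only where a non-coding gene overlaps it. The comparisons with inner gene body and all other peaks thus depend in part on how annotated genes overlap. Non-coding gene bodies made up 12.8% of the far territory, and their part of the remaining span was not measured.

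Fewer far peaks lay at ends of non-coding genes than in their bodies. Within 1 kb of such an end lay 85 far summits (18.1%, interval 14.7 to 21.9), against 15.8% over all 5938 and 3.22% of the far territory. The share was lower than the 25.1% of near intergenic peaks (exact test, adjusted p = 0.0158) and higher than the 11.4% of inner gene body peaks (adjusted p = 0.000690). It did not differ detectably from the 15.6% of all other peaks (adjusted p = 0.189, exact tests). The nearest end within 1 kb was that of a long non-coding RNA gene for 68 peaks. It belonged to a pseudogene for 5, a transcribed pseudogene for 5, a small nuclear RNA gene for 5, a microRNA gene for 1 and a transfer RNA gene for 1. Peaks at non-coding ends had a median fold of 11.2, those inside a body only 10.6, and those at neither 10.1. The 132 far peaks (28.1%) over 20 kb from any annotated gene had a median fold of 9.77, although the highest fold of all, 23.6, was among them.

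Individual non-coding genes carried several far peaks. Gm35551, Gm31718, Junos and Mir100hg hosted 3 each. Junos, transcribed next to the AP-1 subunit gene Jun, held summits of fold 15.2, 11.9 and 9.51, the nearest 53.4 kb from Jun. Around Malat1, an abundant nuclear RNA on chromosome 19, 3 far peaks had folds of 10.9, 12.2 and 14.9, and the strongest covered its annotated start. Dleu2, the host of Mir16-1, held far peaks of fold 16.8, over its start, and 13.4. Snhg5, a host gene of small nucleolar RNAs, had a far peak of fold 11.2 with its summit 117 bp upstream of the start. Lncpint, a p53-induced RNA, held summits of fold 11.7 and 7.01.

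Other far peaks at non-coding ends with high folds were at Gm2885 (17.8, 45.1 kb from Ezr), Gm36486 (17.6, 53.0 kb from the kinase gene Pim1) and Gm26901 (17.3, 224 kb from Pcmtd1). H2af-ps2 (17.1, 27.8 kb from Nxnl2) and Gm36140 (16.9, 80.5 kb from Ubl3) followed. The H2af-ps2 peak was only 165 bp wide, whereas the other 4 were 3156 to 8146 bp wide.

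Starts under far peaks were richer in G and C than other far starts. Of 4125 non-coding genes with a start in far territory, 58 (1.41%, interval 1.07 to 1.81) had a start under a far peak. Of 17462 coding genes with a start window, 3883 (22.2%) had one under a DMSO peak. The 69 windows of the 58 genes had a median G and C content of 54.7%. The 4969 far windows without a DMSO peak had 46.3%, and the 4660 coding windows under DMSO peaks had 64.3%. The 16570 coding windows without a DMSO peak had 54.0%, close to the far windows under peaks. A window counted as CpG-rich at a G and C content of at least 50% and an observed to expected CpG ratio of at least 0.6. Such windows made up 20.3% under far peaks, 2.21% of far windows without a peak and 83.0% of coding windows under peaks. They were 34.5% of coding windows without a peak.

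Examples spanned this range. The Gm34507 start under a far peak of fold 11.1 had 79.3% G and C, Mirc35hg had 70.3%, Dleu2 69.0% and Snhg5 62.0%. Gm13387 had 60.7%, and Lncenc1 had 42.3%. Summits lay on both sides of starts: of 49 far summits within 1 kb of a non-coding start, 27 were downstream and 22 upstream.

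Motif shares moved in the same order as the CpG-rich shares for the GC box. Searched on both strands of each 300-base window, GGGCGG was in 33.3% of far windows under peaks, 7.73% of far windows without a peak, 75.6% of coding windows under peaks and 35.6% of all 32817 windows. The AP-1 letters TGANTCA were in 18.8%, 11.0%, 4.06% and 7.81% of windows in that order. CACGTG was in 13.0%, 5.37%, 12.0% and 7.15%, and CCGGAAG in 7.25%, 2.46%, 18.3% and 8.86%. CCAAT was in 29.0%, 39.1%, 44.0% and 37.4%, and TATAAA in 11.6%, 18.4%, 4.74% and 13.6%. Coding windows without a peak had GGGCGG in 37.9%. These are counts of letters, with 69 windows in the smallest group and base composition differing between groups, and were not tested.

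**Figure D3:**
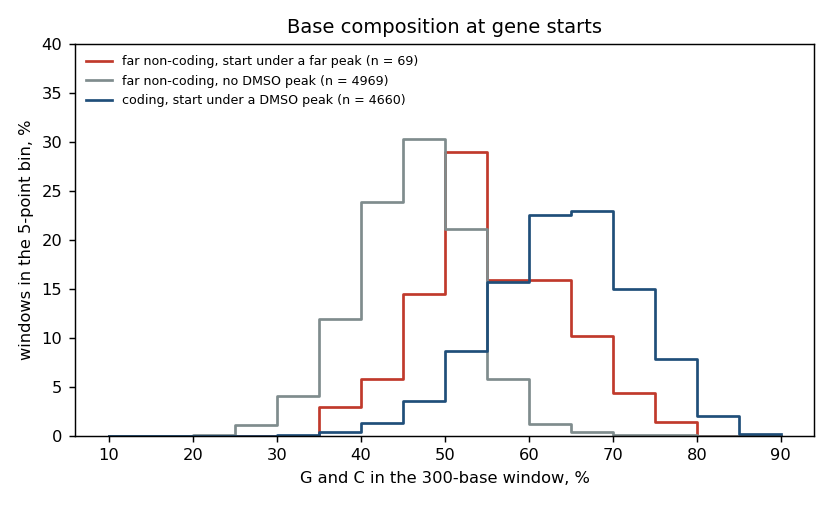
Share of 300-base start windows (percent, vertical) in each 5-point bin of G and C content (percent, horizontal) for far non-coding starts under a far peak (n = 69), far non-coding starts without a DMSO peak (n = 4969) and coding starts under a DMSO peak (n = 4660). The windows under far peaks, with a median of 54.7%, lie between the other groups drawn, at 46.3% and 64.3%. Coding starts without a DMSO peak (median 54.0%) are not drawn.

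Far peaks lay in groups in some intervals. When far peaks closer than 50 kb were joined, 171 (36.4%) fell into 65 groups of 2 or more, 8 of the groups had 4 or more, and 299 far peaks stood alone. The largest group had 8 peaks over 220 kb between Spring1, a regulator of cholesterol synthesis, and Med13l, a Mediator subunit, on chromosome 5. Its folds ran from 7.95 to 11.6. Its median input coverage was 1.59 times background and reached 3.02 times at 1 peak.

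A group of 7 over 102 kb between Cebpb, a transcription factor of fat and immune cells, and Ptpn1, a tyrosine phosphatase, on chromosome 2 had folds of 8.50 to 18.8. The 6 peaks over 104 kb between Haao and Zfp36l2 on chromosome 17 ran from 10.1 to 22.4. The 5 peaks over 76.6 kb between Wnt7b and Ppara on chromosome 15 ran from 9.71 to 23.6, with the lowest values at both outer peaks. The 5 peaks over 99.9 kb between Cstad and 1700001O22Rik on chromosome 2 ran from 13.4 to 21.2, all above the median fold of the list. A further group of 5, on chromosome Y, had folds of 5.38 to 10.3 and a median input coverage of 3.02 times background. In the 4 groups on chromosomes 2, 15 and 17 input coverage was at most 1.73 times background.

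**Figure D4:**
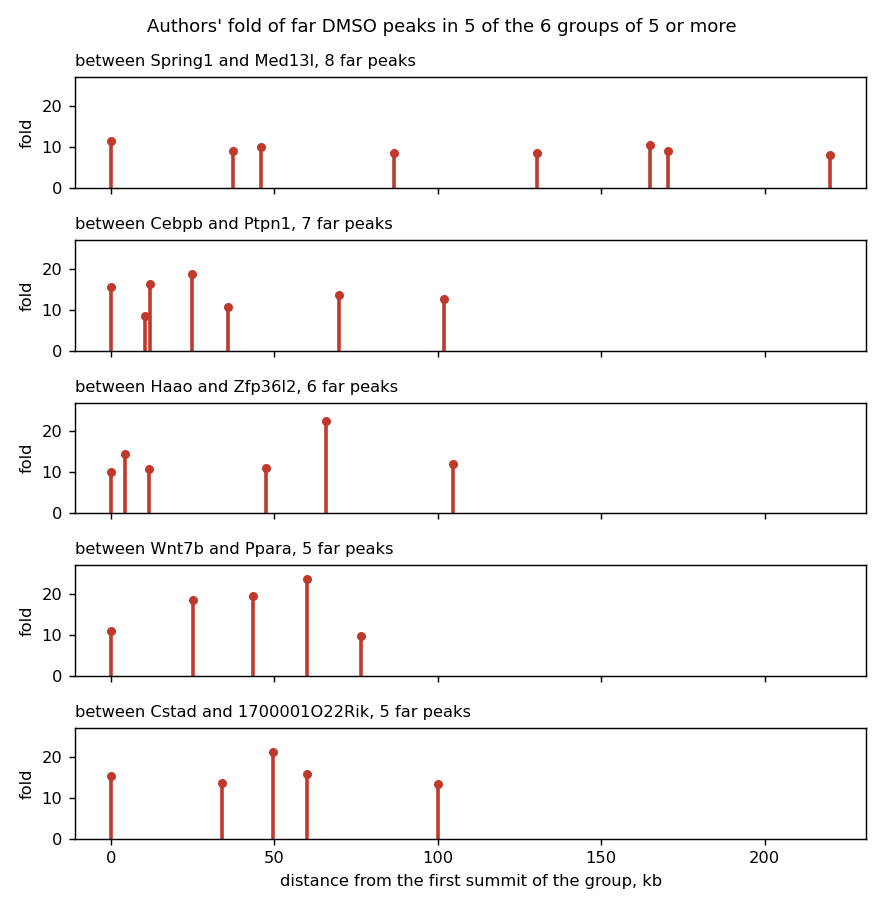
Authors' fold (vertical, from 0) of each far peak against its distance from the first summit of its group (kb), for 5 of the 6 groups of 5 or more far peaks (the group on chromosome Y is not drawn). In the Spring1 to Med13l group the 8 folds lie between 7.95 and 11.6, and in the Wnt7b to Ppara group the middle 3 of 5 peaks reach 18.5, 19.5 and 23.6.

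Any DMSO peak within 50 kb, far or not, was found for 231 far peaks (49.1%, interval 44.5 to 53.8), against 52.3% over all 5938. The share was lower than the 72.3% of near intergenic peaks (exact test, adjusted p = 9.33e-13) and the 56.6% of inner gene body peaks (adjusted p = 0.0102). Against the 52.6% of all other peaks the difference did not pass (adjusted p = 0.189, exact tests). Gene ends, where most DMSO peaks lie, are over 20 kb away from far peaks by the rule, so the rule itself removes near neighbours at gene ends.

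The far peaks had 350 different nearest coding genes, 1.6% of all 21887 coding genes and 3.89% of the 8996 that border far territory. For 270 of them there was 1 far peak. Nfib, a transcription factor of lung and brain development, had the most, 6 peaks with folds of 7.95 to 10.02 at 40.5 to 363 kb. Cebpb and Med13l had 5 each, as did Gm52481 on Y. Zfp36l2, Irf2bp2, Klf14, Spring1, Actbl2 and 4933412E24Rik had 4 each. At Irf2bp2, a transcriptional corepressor, folds were 11.1, 15.8, 17.8 and 10.3 in order of distance from 21.6 to 142 kb. Nearest is a matter of position here, and no link between a peak and the gene was measured.

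Many of these genes had a peak of their own. Of the 350 nearest genes, 121 (34.6%) had a DMSO summit within 1 kb of an end, against 19.5% of all coding genes and 15.7% of those bordering far territory. Counted by peak, 181 far peaks (38.5%, interval 34.1 to 43.1) had such a nearest gene.

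In all, 4 sets of genes known in fibroblasts were counted. The sets were chosen with earlier results of these data known, so their shares are descriptions and no evidence of enrichment. Of 38 AP-1 and immediate early genes, which respond within minutes to serum or stress, 9 (23.7%) were the nearest coding gene of a far peak, against 1.6% of all coding genes. Of the 26 that border far territory the 9 were 34.6%, against 3.89% of all bordering genes. A DMSO summit at an end was found for 20 of the 38 (52.6%), against 19.5% of all coding genes. Its members were Zfp36l2 (4 far peaks, highest fold 22.4), Jun (3, 15.2), Klf4 (3, 8.53), Myc (2, 16.8), Dusp6 (2, 10.02), Fosl2 (1, 13.0), Ier5 (1, 11.2), Sgk1 (1, 9.05) and Ier3 (1, 8.57). Myc itself lies in the stretch of chromosome 15 that was left out, and its far peaks were 338 and 511 kb away.

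Of 74 mesenchymal and developmental transcription factors, 9 (12.2%, against 1.6% of all coding genes) were nearest to a far peak. They were 13.2% of the 68 that border far territory (3.89% over all bordering genes), and 14 of the 74 (18.9%) had a DMSO summit at an end (19.5% over all). Among them were Nfib with 6, and Twist2, Sox9, Hmga2, Gata6, Osr1, Nr2f1 and Snai1 with 1 each and folds from 6.74 to 9.53. Of 54 growth factors and their antagonists, 6 (11.1%) were nearest, 13.0% of the 46 that border far territory, and 8 (14.8%) had a summit at an end. They were Lif (fold 15.4, at 27.4 kb), Tgfb2 (12.4), Cxcl12 (10.4), Bmp4 (10.02), Spry2 (9.29) and Csf1 (8.90). Of 46 extracellular matrix and cytoskeleton genes, 5 (10.9%) were nearest, 14.7% of the 34 that border far territory, and 12 (26.1%) had a summit at an end. They were Col5a1 with 2 peaks, and Tpm1, Col1a2, Col5a2 and Tnc with 1 each and folds from 7.61 to 11.9. Genes with wide flanks can be nearest more often, and the lists were not tested against other genes.

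Few DMSO peaks, far or not, were also in the treated list. Of the 470, 7 (1.49%, interval 0.601 to 3.04) overlapped a treated peak by at least 1 bp, against 2.61% over all 5938. The share was 2.71% among all other peaks (adjusted p = 0.172), 2.02% among near intergenic (adjusted p = 0.628) and 2.09% among inner gene body peaks (adjusted p = 0.585, exact tests). None of these differences passed the threshold of 0.05. The treated list held 119 far peaks by the same rule, 26.4% of its 450 outside the left-out stretch, with a median fold of 5.30 and width of 438 bp. Of these 119, the same 7 (5.88%, interval 2.40 to 11.7) met a DMSO peak. For scale, 155 DMSO peaks of all classes met a treated peak outside the left-out stretch, where the treated list held 450. The 155 are DMSO peaks, not treated ones. The share of those 450 that met a DMSO peak was not counted, so no share stands beside the 5.88%.

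The 7 shared sites were of 2 kinds. At chr6:51176452-51180684 the DMSO peak was 4233 bp wide with a fold of 23.1 in its list, and the treated peak was 1008 bp wide with a fold of 5.84 in its own. At the start of Dancr, an RNA that keeps progenitor cells undifferentiated, the DMSO peak at chr5:74090942-74095286 had a fold of 14.5 and the treated peak, 424 bp wide, 4.60. Input coverage was 1.0 times the DMSO background at the former and 1.30 times at the latter, and summits lay 20 and 152 bp apart. Folds of the lists come from separate callings and were not compared as a change.

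The other 5 DMSO peaks were 176 to 855 bp wide, with input coverage of 3.02 to 12.1 times background and summits 1 or 2 bp from the treated summit. They were at chr8:19784496-19785350 in the pseudogene Gm10060 (DMSO fold 13.3, treated fold 2.64), chr8:15519849-15520024 (9.78 and 3.89) and chr2:57629493-57629708 (6.73 and 5.44). The remaining pair were at chr3:5860349-5860815 (5.59 and 2.43) and chr10:130594788-130594986 (5.43 and 3.26). Only 2 of the 7 shared peaks were thus wide and at low input.

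Overlap with the treated list was also counted in 5 ranges of DMSO fold, without a test. Among far peaks, 3 of 159 met a treated peak in the lowest range (2.80 to 9.71), 1 of 98 in the next, 0 of 95 (interval up to 3.81%) in the middle range, 2 of 62 from 12.2 to 14.6 and 1 of 56 above it. Among gene end peaks the counts were 0 of 569 (interval up to 0.646%), 0 of 704 (up to 0.523%), 3 of 765, 6 of 816 and 102 of 828 in the same order. Shared far peaks were thus spread over weak and strong folds, whereas shared gene end peaks lay mostly in the highest range. The shared far peaks with folds of 5.43, 5.59, 6.73 and 9.78 had input coverage of 4.75 to 12.1 times background. Raised input lowers the fold by arithmetic, so their place in the lower ranges follows in part from the ratio. The shared far peak of fold 13.3 had 3.02 times background, and those at low input had folds of 14.5 and 23.1. In the highest range, above 14.6, near intergenic peaks gave 7 of 85 and inner gene body peaks 20 of 223. The shared far peak of fold 14.5 fell just below this range, so the far count there rests on 1 peak. The far interval there, 0.0452% to 9.55%, overlapped those of near intergenic (3.38% to 16.2%) and inner gene body peaks (5.56% to 13.5%) and lay below that of gene end peaks (10.2% to 14.8%).

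Far peaks more often stood on raised input. Input coverage here is the local background term recovered from the caller's values, in multiples of the genome background below which it cannot fall. It was at least 2 times background at 45 far peaks (9.57%, interval 7.07 to 12.6), against 2.21% over all 5938. The share was 1.57% among all other peaks (adjusted p = 1.32e-17), 4.86% among near intergenic peaks (adjusted p = 0.0102) and 28 of 1292 inner gene body peaks (adjusted p = 8.10e-10, exact tests). At the other extreme, 249 far peaks (53.0%) were at background, compared with 77.1% of all other peaks.

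As input is the denominator of the fold, low folds here follow in part from the ratio itself. The 45 peaks had a median fold of 6.74 and 86 pull-down fragments, and the other far peaks 10.7 and 46. The highest input, 25.1 times background, was at chr17:39842985-39848854 in Rn18s-rs5, a pseudogene related to ribosomal RNA, which also had the lowest fold of all far peaks, 2.80. Next came chr6:3201428-3201580 (14.7 times, fold 3.89), chr17:3081524-3083233 in the pseudogene Pisd-ps2 (13.0 times, fold 4.84) and chr3:5860349-5860815 (12.1 times, fold 5.59). The fifth, chr15:59981671-59998961 (11.7 times, fold 4.21), was 1 of 4 adjoining far peaks just before the left-out stretch of chromosome 15, at 8.24 to 11.7 times background. It was 17291 bp wide, the widest far peak. The part of copy number or repeated sequence in these values was not tested.

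Raised input went with narrow peaks. A limit of 1 kb, chosen after values were seen, put 56 far peaks (11.9%, interval 9.13 to 15.2) in a narrow class with a median width of 179.5 bp. Of these, 31 (55.4%) had raised input, against 14 of 414 wide far peaks (3.38%). Narrow far peaks had a median fold of 8.98 and a median distance of 121 kb from coding genes, and wide ones 10.6 and 56.2 kb. Narrow peaks made up 7.69% of near intergenic, 3.25% of inner gene body and 1.25% of gene end peaks. Of the wide far peaks, 2 met a treated peak, and of the narrow ones 5.

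**Figure D5:**
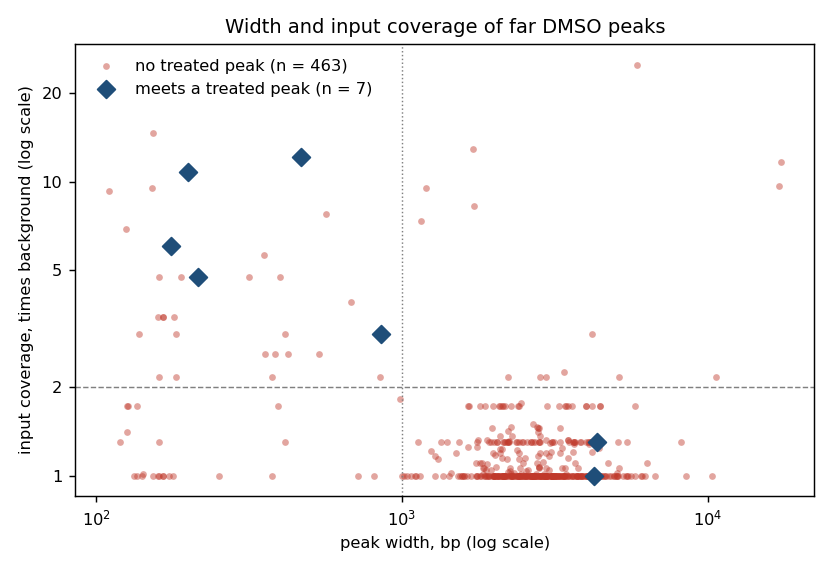
Input coverage in multiples of the genome background (vertical, log scale) against peak width in bp (horizontal, log scale) for the 470 far DMSO peaks. Diamonds are the 7 that met a treated peak, and the lines mark 2 times background and 1 kb. Of the diamonds, 5 lie above 2 times background and left of 1 kb, where 31 far peaks lie in all.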

How the data were processed

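BrITL pull-downs and inputs of mouse embryonic fibroblasts given DMSO or ATR-45 with aphidicolin were used as 2 peak lists in the build mm10. By the peak names, the pull-downs of a condition were pooled and called against its inputs. The submitters' processing notes name, with no role, MACS2 2.1.0, Picard 1.141, STAR 2.5.2a, bcl2fastq 2.17.1.14 and SAMtools 0.1.19. The threshold for a peak to be listed is not known here. Each peak carries a deposited score, a fold (ratio) at the summit, and deposited −log10 p and −log10 q values, all by the authors' caller, plus the deposited summit offset. The score equals 10 times the −log10 p, cut to a whole number.

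Pull-down fragments and the background term at each summit were recovered by inverting the caller's formulas. Every peak was solved within 0.02 of a whole fragment, and the method was tested on simulated data. The DMSO list had a background of 2.32 fragments, where 69.3% of its peaks lay. Depth per sample is unknown. The gene table (RefSeq GRCm38.p6, 49943 genes) gives no strand or exons, and strand came from the start windows. Peak sequences were not used here. Classes differed or not by two-sided Fisher's exact tests of shares, 21 in all, with Benjamini-Hochberg adjustment at 0.05. PCR copies are not independent molecules.

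The members and gene lists were chosen with earlier results of these data known. Peaks named were the 10 of highest fold, all that met a treated peak, the 5 farthest from coding genes, the 5 of highest input and the 3 on each side of the limit. The 8 of highest fold at non-coding ends, the 5 largest groups (and a group on Y tied with the last) and up to 5 on X and on Y were named too. Other genes and sites named (non-coding hosts, microRNAs, starts, genes with most far peaks) were chosen after their values were seen. Alternatives were other distance limits, the left-out stretch kept in, stricter −log10 q, 1 peak per group, and other limits of overlap, distance and input. Software was pandas 2.3.3, SciPy 1.17.1, NumPy 2.4.6 and Matplotlib 3.10.9 under Python 3.11.15.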

Additional observations from a re-analysis of the deposited data

How the results depend on the processing

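Of 61 alternative comparisons of far peaks with all other peaks, 50 kept direction and side of the threshold. The number of far peaks was 272 at a limit of 50 kb, 946 with the stretch of chromosome 15 kept in and 208 at a −log10 q of at least the list's median. The share at non-coding ends became 19.4% and passed at a limit of 10 kb, and 37.7% within 5 kb of an end (27.8% of all others), again passing. The share with another peak within 50 kb turned to 54.7% at a limit of 10 kb and to 46.6% (40.3% of all others) at the stricter q, both short of the threshold. It was lower and passed at a limit of 50 kb (40.1%), and passed for a neighbour within 100 kb (63.6%). Keeping the stretch of chromosome 15 in turned 3 results: overlap with treated peaks became 3.59%, non-coding ends 10.4% and neighbours 74.7%, against 2.78%, 15.5% and 52.8% of all others. It also took the share with raised input to 54.9% (2.11% of all others) and that reaching the median fold to 19.9% (55.3%), with their calls kept. At the stricter q, 3.37% met a treated peak (4.92% of all others), 83.2% reached the median fold (96.0%) and 59.1% the median width (73.2%). Overlap with treated peaks was 0.471% without raised-input peaks and 0.483% without peaks under 1 kb, but both filters were chosen after 5 of the 7 shared far peaks were seen to have these features and remove them by construction, so the tests show nothing further. The share with raised input was 3.38% without peaks under 1 kb (1.01% of all others). The causes were not tested. No paired analysis was possible because the lists pool the pull-downs, and leaving out a replicate could not be run for the same reason. Read depth is unknown, so no precision beyond counting error can be given.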

Other observations

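Far peaks at genes of small structural RNAs were few, and they were picked out after their values were seen. At small nuclear RNA genes, the splicing RNAs, there were 5 far peaks. On chromosome 3, peaks of fold 16.3 and 13.7 lay 350 and 569 bp from Gm25890 and Gm22614, and a peak of fold 13.5 lay 73 bp from Gm24830. The remaining ones were 21 bp from LOC115488100 on chromosome 12 (fold 10.3) and 267 bp from Gm23472 on chromosome 1 (fold 9.53). The Gm25890 peak was 160 bp wide, and near-identical copies of such genes make the place of reads uncertain. The single far peak at a transfer RNA gene, n-TVaac6 on chromosome 13, had a fold of 9.29 and lay 38 bp from its end.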
